A study of Homo sapiens with 12 samples.

Results

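Cholesterol is built from acetyl-CoA through mevalonate, isoprenyl diphosphates, squalene and lanosterol, and the genes of this route are classical targets of the sterol regulatory element-binding proteins (SREBPs). The SREBPs are held in the endoplasmic reticulum by SCAP and the INSIG proteins while sterols are plentiful, and are carried to the Golgi and cleaved when sterols fall. The liver is a main site of this synthesis, and hepatocellular carcinoma cells keep the pathway active in culture. The genes described here are 32 named members of the pathway and of its regulation, listed by gene symbol for their function, with no rule on values, out of 60666 genes listed. They comprise 20 synthesis enzymes and 12 genes of SREBP control, sterol transport, sterol esterification and related functions. All 32 were found in the table, all 32 passed the filter on low values (at least 1 TPM in at least 3 libraries), and 31 had at least 1 TPM in every library.

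RNA was sequenced from Huh7, an established hepatocellular carcinoma line, in a control group and a FAM111B knockdown group of 3 libraries each. Hep3B, the other cell line of the series, is not analysed here. In the study's methods, the knockdown was stable, made with a lentiviral shRNA and puromycin selection, and a single shFAM111B sequence is listed. The labels give the same genotype, culture medium and serum to every library of a group, and do not say whether the 3 libraries came from separate cultures, so the p-values below measure the spread between these libraries, which may be technical. The values are TPM from bulk RNA, a unit that corrects the reads of a gene for transcript length and expresses them relative to the sum over the library. TPM keep no sequencing depth, so counting errors could not be given, and fewer cells expressing a gene cannot be told apart from less RNA per cell. FAM111B, the targeted gene, had 7.84, 8.29 and 7.99 TPM in the control libraries and 0.96, 1.13 and 0.84 TPM in the shFAM111B libraries.

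The hepatocyte character of the cells was visible in every library, with AFP at 7045 to 25038 TPM, ALB at 3988 to 6492 TPM and HNF4A at 38.5 to 99.6 TPM. Of the fibroblast, endothelial and leukocyte markers reported here, LYZ was at 259.4 to 317.1 TPM and the others at 4.45 TPM or less, with KDR listed at 0 in every library and CDH5, VWF, DCN and CD3E at 0.13 TPM or less. PTPRC had 0.13, 0.04 and 2.39 TPM in controls and 0, 0.02 and 0 TPM after knockdown, with control replicate 3 apart from the rest. The 10 hepatocyte markers, of which 4 rose and 6 fell, summed to 27947 to 28518 TPM in controls and 41574 to 46536 TPM in shFAM111B libraries, led by AFP and APOA1. The summed fibroblast markers were at 3.72 to 4.19 and 5.61 to 9.02 TPM and the endothelial at 1.26 to 2.29 and 2.15 to 3.49 TPM. The part of these shifts in the results below was not tested. Across the 14394 tested genes, libraries of a group correlated at 0.969 to 0.984 and libraries of different groups at 0.865 to 0.883. Differences are log2 fold changes on the log2(TPM + 1) scale, shFAM111B minus control, tested in limma with Benjamini-Hochberg adjustment over all tested genes. The median of all tested genes was -0.36 on this scale, so groups of genes are also described relative to it.

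Sequences upstream of 6 members are shown because they hold letters that match the sterol regulatory element bound by SREBPs, or the CCAAT box bound by NF-Y, a common partner of SREBPs. They come from the RefSeq promoter windows (GRCh38.p14, from 250 bases before to 50 after a gene's start), which cover 28 of the 32 members in 39 windows. The stretches are printed 5′ to 3′ on the strand of the gene, they overlap no exon of that gene in GENCODE 29, and capitals mark matches to TCACNCNAC or to CCAAT, read on either strand, so that a CCAAT on the opposite strand appears as its reverse complement. The first 4 genes fell in the shFAM111B libraries and the last 2 rose.
SREBF2: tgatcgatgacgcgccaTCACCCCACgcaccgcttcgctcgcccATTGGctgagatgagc
HMGCS1: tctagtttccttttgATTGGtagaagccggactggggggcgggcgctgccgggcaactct
IDI1: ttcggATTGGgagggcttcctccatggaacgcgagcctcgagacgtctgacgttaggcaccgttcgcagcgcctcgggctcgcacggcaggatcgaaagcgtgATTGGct
STARD4: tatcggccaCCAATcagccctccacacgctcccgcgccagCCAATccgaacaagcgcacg
FDPS: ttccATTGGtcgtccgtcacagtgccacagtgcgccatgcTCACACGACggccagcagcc
HSD17B7: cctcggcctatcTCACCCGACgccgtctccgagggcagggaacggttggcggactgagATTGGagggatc
The SREBF2 stretch is chr22:41832955-41833014, and that of HMGCS1 is chr5:43313523-43313582 on the minus strand. IDI1 is shown from chr10:1049230-1049339 and STARD4 from chr5:111512646-111512705, both on the minus strand. FDPS is shown from chr1:155308686-155308745 and HSD17B7 from chr1:162790592-162790661.

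The exact letters TCACCCCAC occurred among the members in SREBF2 alone, 133 bases before its start. On either strand they occurred in 0.535% of all genes with a window, or 0.43% of all 35116 windows. The looser TCACNCNAC, which includes that sequence, was found in SREBF2, FDPS and HSD17B7, 3 of the 28 members with a window (10.7%), against 3.13% of all genes with a window. The E-box TCACGTGA was found in INSIG1 alone among the 28 members (3.57%), against 1.18% of all genes with a window. CCAAT was present in 20 of the 28 members (71.4%) against 39.7% of all genes, and GGGCGG, the core of the Sp1 site, in 26 of 28 (92.9%) against 48.3%. Among members with a window, CCAAT occurred in 7 of the 8 that rose and in 11 of the 17 that fell, so these letters were found in genes of both directions. Of the printed genes, FDPS and HSD17B7 carry the looser element and rose, whereas SREBF2 carries it and fell. These matches describe the letters of a window and are not sites.

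In the shFAM111B libraries, 10 of the 32 members rose and 18 fell at an adjusted p under 0.05 (limma), with no call for GGPS1, SQLE, TM7SF2 and INSIG2. Any call was made for 72% of all tested genes. The members that rose made up 31.2%, against 21.1% of all tested genes, and those that fell 56.2%, against 50.9%. With a change of at least 2-fold required as well, 3 rose (9.38%, against 6.77%) and 7 fell (21.9%, against 23.7%). The shares at 2-fold were thus near those of all tested genes, and the median member, at -0.27, lay 0.09 above the median tested gene. The groups did not overlap for 27 of 32 members (84.4%, against 75.2% of all tested genes), 10 of them higher (against 22.5%) and 17 lower (against 52.8%). Calls in both directions occurred among the members, as among all tested genes. PMVK, EBP and NPC2 rose by at least 2-fold, while HMGCS1, IDI1, LBR, SREBF2, STARD4, LPIN1 and MYLIP fell by at least 2-fold.

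The early steps, from acetyl-CoA to the isoprenyl diphosphates, moved in both directions. HMGCS1 (ENSG00000112972, chromosome 5 from 43289395 to 43313512, minus strand) makes HMG-CoA and is a strongly sterol-regulated enzyme. It had 396.8, 349.3 and 333.7 TPM in the control libraries and 119.7, 134.5 and 125.5 TPM in the shFAM111B libraries. The highest knockdown library lay far below the lowest control, and the means of 359.9 ± 32.9 and 126.6 ± 7.45 TPM (SD, n = 3) differed by -1.50 on the log2 scale (standard error 0.077, adjusted p = 5.99e-06, limma). ACAT2, the cytosolic acetoacetyl-CoA thiolase that acts just before HMGCS1, had 187.7 ± 5.22 TPM (SD, n = 3) in controls and 217.3 ± 2.74 TPM (SD, n = 3) after knockdown. That rise of 0.21 (adjusted p = 0.00285, limma) was no longer called after quantile normalization, at 0.04.

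The kinases and the decarboxylase that follow rose. PMVK (ENSG00000163344, chromosome 1 from 154924734 to 154936991, minus strand), which phosphorylates phosphomevalonate, had 36.0, 41.0 and 37.3 TPM in controls and 87.8, 81.5 and 105.0 TPM in shFAM111B libraries. Each knockdown library stood above every control, and the log2 fold change was 1.24 (standard error 0.102, adjusted p = 3.92e-05, limma). MVK, the mevalonate kinase before it, went from 38.9 ± 1.59 to 55.0 ± 4.70 TPM (SD, n = 3), a rise of 0.49 on the log2 scale. MVD, the decarboxylase after it, went from 159.3 ± 7.22 to 205.2 ± 7.12 TPM (SD, n = 3), a rise of 0.36. Groups did not overlap for either enzyme.

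The next pair of enzymes parted. IDI1 (ENSG00000067064, chromosome 10 from 1039152 to 1049170, minus strand), the isomerase that makes dimethylallyl diphosphate, had 119.0, 112.4 and 92.9 TPM in controls and 44.5, 46.3 and 42.7 TPM after knockdown. Its log2 fold change was -1.25 (standard error 0.096, adjusted p = 2.68e-05, limma), with control replicate 3 the lowest of the controls and still well above all shFAM111B libraries. FDPS, the farnesyl diphosphate synthase that uses the product of IDI1, had 337.0, 351.1 and 371.2 TPM in controls and 670.7, 662.0 and 717.4 TPM in shFAM111B libraries. The rise of FDPS was 0.95 (standard error 0.054, adjusted p = 8.25e-06, limma). GGPS1, which diverts farnesyl diphosphate to geranylgeranyl diphosphate, had 19.2 ± 0.494 TPM in controls and 20.4 ± 0.841 TPM after knockdown (SD, n = 3). The interval of its log2 fold change ran from -0.07 to 0.24. Under 4 other scalings GGPS1 was at 0.48 to 0.62 and called higher each time.

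In these 8 early genes, 5 rose and 2 fell (against 21.1% and 50.9% of all tested genes). Their median log2 fold change of 0.29 lay 0.65 above that of all tested genes. The numbers were 5 or 6 higher and 2 lower under each of the 4 other scalings tried (against 32.5% to 41.6% and 29.4% to 36.8% of all tested genes). Annotated pseudogene copies of FDPS and IDI1 had at most 1.61 TPM in any library.

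The 3 genes of squalene and lanosterol synthesis had a median of -0.13, with 2 lower and 0 higher (against 50.9% and 21.1% of all tested genes). The counts became 0 lower and 2 higher under median-of-ratios, upper-quartile and median scaling (against 29.4% to 36.4% and 34.3% to 41.6% of all tested genes). FDFT1, squalene synthase, went from 133.5 ± 1.06 to 122.1 ± 3.49 TPM (SD, n = 3). Its log2 fold change was -0.13 (adjusted p = 0.0304, limma) and turned to 0.28 to 0.41 under the same 3 scalings. SQLE, squalene epoxidase, had 47.0, 48.1 and 42.7 TPM in controls and 44.6, 50.9 and 48.0 TPM after knockdown. The groups overlapped, and the interval of its log2 fold change ran from -0.12 to 0.23. LSS, lanosterol synthase, fell from 42.4 ± 2.28 to 28.6 ± 0.452 TPM (SD, n = 3), or by -0.55 on the log2 scale (adjusted p = 0.000151, limma). Its value shrank to -0.02 to -0.15 under median-of-ratios, upper-quartile and median scaling, at which it was not called.

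Of the 9 genes that turn lanosterol into cholesterol, 3 rose, 5 fell and TM7SF2 was not called. Among all tested genes, 21.1% rose and 50.9% fell. EBP (ENSG00000147155, chromosome X from 48521158 to 48528716, plus strand) is the sterol isomerase of the late pathway. It had 248.7, 274.2 and 281.2 TPM in controls and 717.4, 665.2 and 818.2 TPM in shFAM111B libraries. The lowest knockdown library was above the highest control by more than the spread of either group, with a log2 difference of 1.45 (standard error 0.086, adjusted p = 9.72e-06, limma). HSD17B7, a 3-ketosteroid reductase, had 10.1, 9.69 and 8.74 TPM in controls and 20.2, 16.8 and 18.8 TPM after knockdown, a rise of 0.90 (standard error 0.096). Its partner in the removal of the C4 methyl groups, NSDHL, rose by 0.51, from 23.02 ± 1.45 to 33.2 ± 0.657 TPM (SD, n = 3). The pseudogene HSD17B7P2 was at 2.36 TPM or less, and how reads shared with it were divided is not given in the sources used here.

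Enzymes before and after these steps fell. CYP51A1, the lanosterol demethylase, went from 92.9 ± 4.38 to 53.8 ± 2.78 TPM (SD, n = 3), with -0.78 on the log2 scale (standard error 0.061, adjusted p = 3.03e-05, limma). SC5D, the desaturase that acts on the product of EBP, had 41.9, 40.4 and 36.2 TPM in controls and 20.8, 22.3 and 19.2 TPM after knockdown, so the groups differed by -0.89 on the log2 scale (standard error 0.084). DHCR7, the reductase that completes cholesterol by the Kandutsch-Russell route, went from 192.7 ± 3.92 to 122.9 ± 4.5 TPM (SD, n = 3). Its log2 fold change of -0.64 (adjusted p = 2.03e-05, limma) became -0.11 with each library's median subtracted, at which it was not called. MSMO1, the C4-methyl oxidase, fell by 0.30 with the deposited TPM and by 0.34 after quantile normalization, and its sign turned to 0.11 to 0.23 under the 3 other scalings.

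LBR and TM7SF2 encode the alternative sterol C14-reductases, and they were apart. LBR (ENSG00000143815, chromosome 1 from 225401502 to 225428925, minus strand), which is also the lamin B receptor of the inner nuclear membrane, had 57.7, 54.5 and 51.4 TPM in controls and 21.9, 24.1 and 21.2 TPM after knockdown. The log2 fold change of LBR was -1.25 (standard error 0.074, adjusted p = 9.72e-06, limma), and the groups lay far apart. TM7SF2 had 29.5, 32.8 and 39.1 TPM in controls and 39.7, 35.1 and 42.6 TPM after knockdown, so the groups overlapped and its log2 fold change of 0.21 was not called (adjusted p = 0.144, limma). The gene span of TM7SF2 overlaps that of VPS51 on the same strand. Without control replicate 3, TM7SF2 was at 0.32 (adjusted p = 0.0346, limma), and it was called higher under each of the 4 other scalings.

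**Figure D1:**
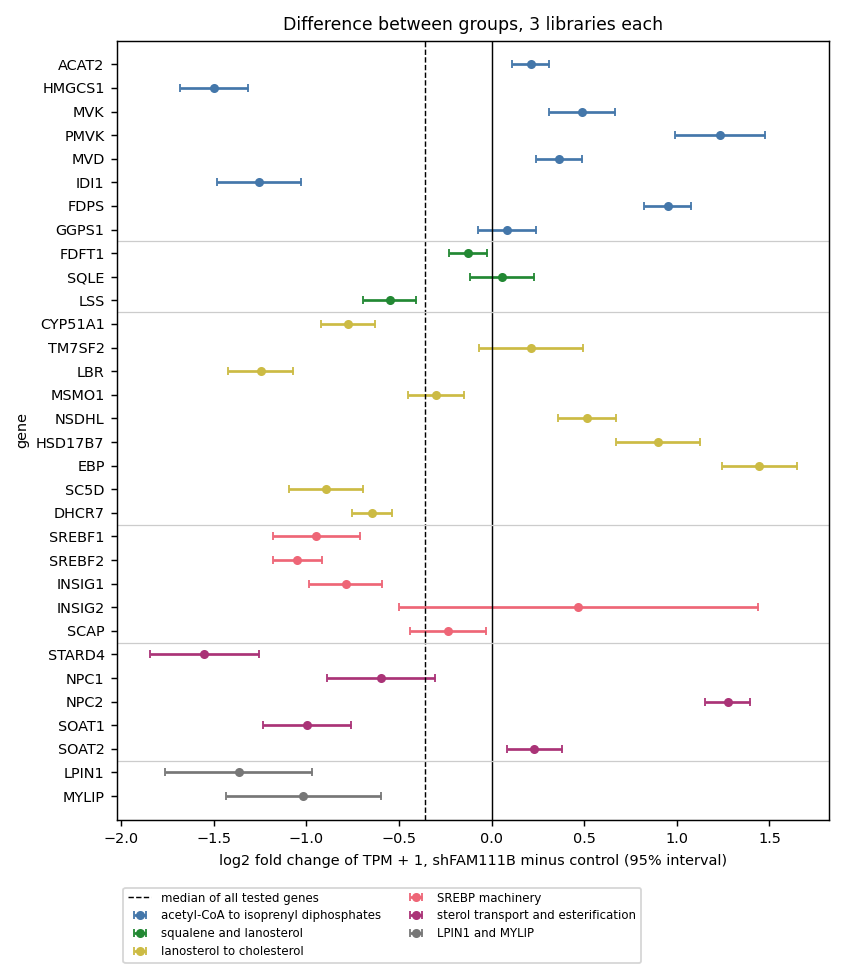
Log2 fold change of TPM + 1 (shFAM111B minus control) of each member with its 95% interval from limma, 3 libraries a group, coloured by role, with a solid line at 0 and a dashed line at the median of all tested genes (-0.36). EBP, NPC2 and PMVK lie above 1 and HMGCS1 and STARD4 near -1.50, whereas the intervals of GGPS1, SQLE, TM7SF2 and INSIG2 cross 0, and FDFT1, MSMO1 and SCAP change sign under other scalings.

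The order of the enzymes by level differed between the groups. TPM are divided by transcript length, but the differences between groups still moved with length, as given below. The part of length in this order was not tested. In controls HMGCS1 at 359.9 ± 32.9 TPM and FDPS at 353.1 ± 17.2 TPM (SD, n = 3) were the highest of the 20 enzymes. Their order varied between the control libraries. EBP followed at 268.0 ± 17.1 TPM (SD, n = 3). After knockdown EBP at 733.6 ± 77.8 TPM and FDPS at 683.3 ± 29.8 TPM (SD, n = 3) led, and HMGCS1 ranked 5. EBP was above FDPS in each shFAM111B library, narrowly so in replicate 2 (665.2 and 662.0 TPM). IDI1 went from rank 9 to 13, LBR from 11 to 17 and PMVK from 16 to 9, while HSD17B7 stayed the lowest at rank 20.

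EBP and FDPS, singled out after their values had been seen, together took 24.9%, 26.5% and 28.3% of the summed TPM of the 20 enzymes in the control libraries and 50.3%, 49.0% and 52.4% in the shFAM111B libraries. HMGCS1 took 16.9%, 14.8% and 14.5% in controls and 4.34%, 4.97% and 4.28% after knockdown. These shares are taken within a library, so a scaling factor common to all its genes cancels. A shift that follows transcript length does not cancel, and its part was not tested. EBP (1775 nt) and FDPS (2017 nt) have shorter annotated transcripts than HMGCS1 (3506 nt).

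Among the genes of SREBP control, 4 of 5 fell (against 50.9% of all tested genes), and INSIG2 was not called. SREBF2 (ENSG00000198911, chromosome 22 from 41833079 to 41907308, plus strand) encodes SREBP2, the main activator of cholesterol synthesis genes. It had 62.2, 61.9 and 64.3 TPM in controls and 31.3, 28.6 and 29.7 TPM after knockdown, with a difference of -1.05 on the log2 scale (standard error 0.056, adjusted p = 6.92e-06, limma). SREBF1, which encodes the SREBP1 isoforms that act mainly on fatty acid synthesis, had 63.7, 50.4 and 58.1 TPM in controls and 30.6, 30.4 and 26.8 TPM after knockdown, with a log2 difference of -0.95 (standard error 0.099, adjusted p = 0.000121, limma). Both factors were at about the same level as each other in each library, and all knockdown libraries of both lay below all controls. The SREBF1 to SREBF2 ratio was 0.91 ± 0.105 in controls and 0.98 ± 0.080 after knockdown (SD, n = 3).

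INSIG1, an SREBP target that retains the SCAP complex in the endoplasmic reticulum, had 43.2, 37.8 and 35.9 TPM in controls and 21.2, 23.1 and 22.1 TPM after knockdown, with a log2 difference of -0.79 (standard error 0.084, adjusted p = 0.000128, limma). INSIG2, its less regulated paralogue, had 9.94, 12.4 and 3.66 TPM in controls and 8.22, 10.9 and 15.5 TPM after knockdown. Control replicate 3 was the lowest and shFAM111B replicate 3 the highest, the groups overlapped, and the interval of the log2 fold change ran from -0.50 to 1.44. SCAP, the sterol-sensing escort of the SREBPs, had 51.6, 58.8 and 62.3 TPM in controls and 48.6, 45.4 and 52.0 TPM after knockdown. The groups of SCAP overlapped, and its log2 fold change of -0.24 (adjusted p = 0.0416, limma) turned to 0.01 to 0.30 under the 4 other scalings. As a group these 5 genes had a median of -0.79, which is -0.43 relative to the median tested gene. Under the 4 other scalings their median was -0.39 to -0.25, with 3 lower and 0 or 1 higher (against 29.4% to 36.8% and 32.5% to 41.6% of all tested genes). With the trend of all tested genes with length and expression removed, it was -0.32, with 3 lower and 1 higher (against 32.9% and 31.1%). All 5 have a longest annotated transcript over 3000 nt, and the median of all tested genes over 3000 nt was -0.72.

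Sterol transport and esterification genes moved both ways, with 2 higher and 3 lower (against 21.1% and 50.9% of all tested genes). The counts were 2 higher and 2 lower under each of the 4 other scalings (against 32.5% to 41.6% and 29.4% to 36.8% of all tested genes). NPC2 (ENSG00000119655, chromosome 14 from 74476192 to 74494177, minus strand), the soluble lysosomal protein that hands cholesterol to NPC1, had 96.1, 93.3 and 99.8 TPM in controls and 222.8, 241.2 and 239.7 TPM after knockdown. The log2 fold change of NPC2 was 1.27 (standard error 0.052, adjusted p = 3.15e-06, limma), the smallest adjusted p of the 32. NPC1, the lysosomal membrane protein that exports the cholesterol, had 32.3, 30.3 and 30.5 TPM in controls and 21.4, 23.2 and 16.5 TPM after knockdown. Its log2 fold change of -0.60 (adjusted p = 0.00353, limma) was -0.06 to -0.20 under the 4 other scalings, at which it was not called.

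STARD4 (ENSG00000164211, chromosome 5 from 111496033 to 111512590, minus strand), a soluble sterol carrier induced by SREBP2, had 18.7, 19.99 and 14.6 TPM in controls and 5.19, 5.43 and 5.44 TPM after knockdown. Its log2 difference was -1.55 (standard error 0.124, adjusted p = 3.3e-05, limma). The esterifying enzymes moved in opposite directions with the deposited TPM. SOAT1, the widely expressed sterol acyltransferase, had 15.5, 14.5 and 14.4 TPM in controls and 6.65, 7.87 and 6.28 TPM after knockdown, with a log2 difference of -0.997 (standard error 0.101, adjusted p = 0.000101, limma). SOAT2, the acyltransferase of hepatocytes and enterocytes, had 31.5, 34.9 and 33.0 TPM in controls and 38.1, 38.4 and 40.5 TPM after knockdown, with a log2 difference of 0.23 (standard error 0.062, adjusted p = 0.0129, limma). With the length and expression trend removed, SOAT1 was at -0.01 (adjusted p = 0.958, limma) and SOAT2 at 0.39 (adjusted p = 0.00141, limma).

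LPIN1, a phosphatidate phosphatase and coregulator that SREBPs induce, had 5.63, 5.18 and 7.63 TPM in controls and 1.55, 2.14 and 1.58 TPM after knockdown, with a log2 difference of -1.37 (standard error 0.168, adjusted p = 0.00027, limma). MYLIP, the ubiquitin ligase that LXR induces and that lowers lipoprotein receptor levels, had 3.14, 3.50 and 3.69 TPM in controls and 1.61, 1.31 and 0.75 TPM after knockdown. Its log2 fold change was -1.02 (standard error 0.176, adjusted p = 0.00156, limma), and -0.85 without shFAM111B replicate 3, the lowest library. Both genes are low, so the pseudocount of 1 understates their change.

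Ratios between members within a library, which do not depend on a common scaling factor, were computed for 10 pairs. A shift that follows transcript length does not cancel in them, and its part was not tested. The pairs were chosen after the values had been seen, most of them to join a gene that rose to one that fell. The ratios are therefore a description. A permutation of the group labels was run for each pair. With 3 libraries a group it cannot give a two-sided p under 0.1, so nothing is concluded from it. EBP to SC5D, which act in sequence, stood at 5.94, 6.79 and 7.77 in controls and at 34.4, 29.8 and 42.7 after knockdown. FDPS to IDI1 was 2.83, 3.12 and 3.997 in controls against 15.1, 14.3 and 16.8 after knockdown, and NPC2 to NPC1 was 2.97, 3.08 and 3.28 against 10.4, 10.4 and 14.5. SOAT2 to SOAT1 went from 2.25 ± 0.194 to 5.69 ± 0.786 (SD, n = 3). In each pair printed here the first gene has the shorter annotated transcript. Examples are NPC2 (1436 nt) with NPC1 (5157 nt) and SOAT2 (2044 nt) with SOAT1 (6861 nt). The groups overlapped for SREBF1 to SREBF2 and were separate for the other 9 pairs.

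**Figure D2:**
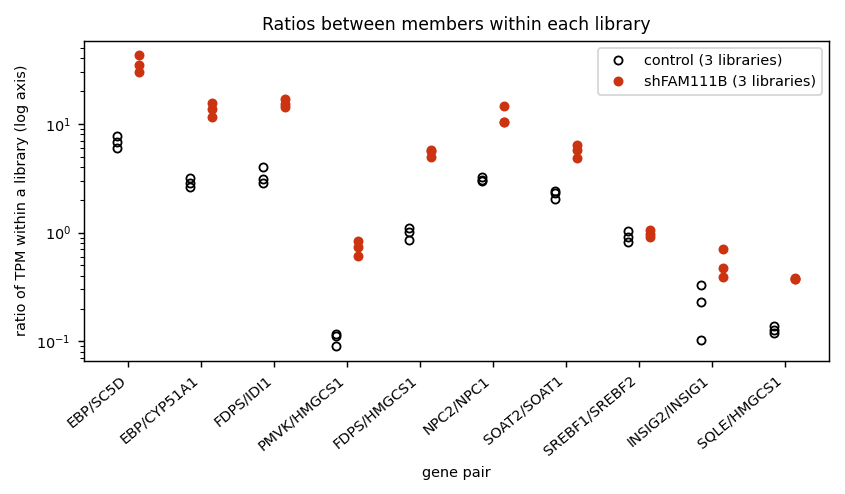
Ratio of the TPM of paired members within each library (log axis) for 10 gene pairs, with the 3 control libraries as open circles and the 3 shFAM111B libraries as filled circles. Control and shFAM111B libraries are separate for 9 pairs, EBP to SC5D being 5.94 to 7.77 in controls and 29.8 to 42.7 after knockdown, and they overlap for SREBF1 to SREBF2.

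Transcript length moved with these differences. The length used is that of the longest transcript in GENCODE 29, which need not be the form expressed. Of the 17 members with over 3000 nt, 3 rose and 13 fell, and of the 15 members with up to 3000 nt, 7 rose and 5 fell. All tested genes showed the same order, with 10% higher and 68.1% lower over 3000 nt and 33.8% higher and 31.5% lower up to 3000 nt. Across the 32 members, Spearman's correlation between length and log2 fold change was -0.68, against -0.46 across 14263 tested genes with a length, as a description over genes that share the same 6 libraries. The part of transcript length in the calls was not tested beyond the removal of its trend given below. PMVK (1280 nt), NPC2 (1436 nt) and EBP (1775 nt) are the shortest members and rose by at least 2-fold. SOAT1 (6861 nt), SREBF2 (5699 nt) and LPIN1 (5690 nt) are the longest and fell.

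Length did not order all members. MVK (4109 nt) and HSD17B7 (3087 nt) rose, and SC5D (2456 nt), DHCR7 (2666 nt) and MYLIP (2796 nt) fell. With the trend of all tested genes with length and expression removed, EBP was at 1.29, NPC2 at 1.01, PMVK at 0.97 and FDPS at 0.85. HMGCS1 was then at -1.28, IDI1 at -0.87, STARD4 at -0.75 and SREBF2 at -0.36, each still called. SOAT1 was at -0.01 (adjusted p = 0.958, limma), which lies on the trend of genes of its length and level.

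Under the deposited TPM and the 4 other scalings, 9 members were called higher each time and 12 lower each time. The share of all tested genes called alike under all 5 was not computed, so these counts have no such share beside them. With the deposited TPM alone, 72% of all tested genes were called. The 9 were MVK, PMVK, MVD, FDPS, NSDHL, HSD17B7, EBP, NPC2 and SOAT2, and all 9 were also called higher with the length and expression trend removed. The 12 were HMGCS1, IDI1, CYP51A1, LBR, SC5D, SREBF1, SREBF2, INSIG1, STARD4, SOAT1, LPIN1 and MYLIP, of which 11, all but SOAT1, were also called lower with the trend removed. The sizes of these differences moved with the scaling. With the median subtracted and with the trend removed, SREBF1 was at -0.41 and -0.32, SREBF2 at -0.52 and -0.36, and INSIG1 at -0.25 and -0.34. CYP51A1 was then at -0.24 and -0.42, SC5D at -0.36 and -0.59, and LBR at -0.71 and -0.69. The other 11 members changed their call or sign with the scaling or were never called. With median-of-ratios scaling 14 members were higher (against 35.8% of all tested genes) and 13 lower (against 35.2%), and with upper-quartile scaling 14 were higher (against 34.3%) and 13 lower (against 36.4%). With each library's median subtracted 16 were higher (against 41.6%) and 12 lower (against 29.4%), and after quantile normalization 12 were higher (against 32.5%) and 16 lower (against 36.8%). With the trend removed 14 were higher (against 31.1%) and 13 lower (against 32.9%). The number of higher members thus overtook that of lower members under 4 of these 5 alternatives, all but quantile normalization.

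**Figure D3:**
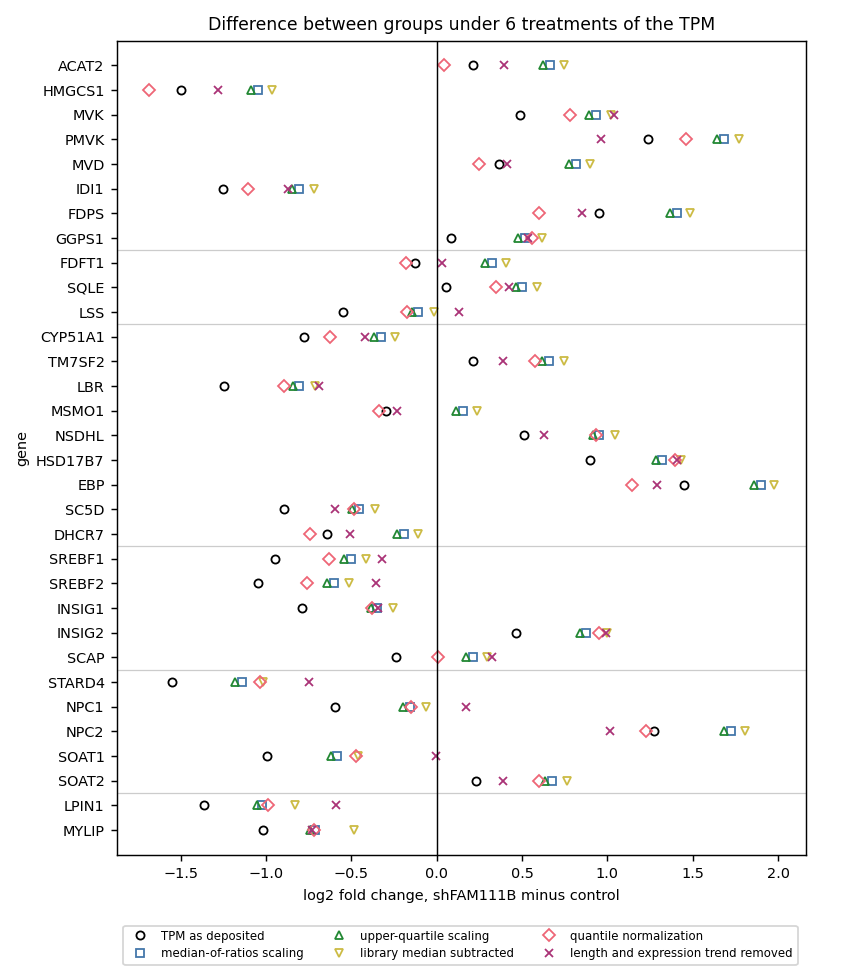
Log2 fold change (shFAM111B minus control) of each member with the TPM as deposited, under 4 other scalings, and with the trend of all genes with transcript length and expression removed. EBP, NPC2, PMVK and FDPS stay on the right of 0 and HMGCS1, IDI1, LBR and STARD4 on the left under all 6, whereas FDFT1, MSMO1 and SCAP cross 0 between scalings and LSS and NPC1 cross it with the trend removed.

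Other genes of the pathway were counted in lists by function, against 21.1% higher and 50.9% lower among all tested genes with the deposited TPM. Under the 4 other scalings, 32.5% to 41.6% of all tested genes were higher and 29.4% to 36.8% lower. With the length and expression trend removed, these shares were 31.1% and 32.9%. Of 11 genes of SREBP processing and sterol sensing, 10 fell and 0 rose (limma, adjusted p under 0.05; the exception, RNF145, had an unadjusted p of 0.492 and was called higher under the 4 other scalings), with a median of -1.34. SEC23A, a COPII coat subunit of the vesicles that carry SCAP and SREBP to the Golgi, had a log2 fold change of -1.79, and FAF2, which helps extract sterol-pathway proteins for degradation, of -1.34. Of 13 genes that use isoprenoids, 12 fell, with a median of -0.88, and 6 or 7 were lower and 1 higher under the 4 other scalings, with medians of -0.51 to -0.34. Among them FNTA, the shared subunit of protein prenyltransferases, was at -1.12 and NUS1, a subunit of the dolichol-making prenyltransferase, at -1.22. With the length and expression trend removed, 8 of 11 and 8 of 13 were called lower (against 32.9% of all tested genes).

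Among 11 lipogenic targets of SREBP1, 2 rose and 7 fell, with a median of -0.65. With the median subtracted 3 were higher and 4 lower (median -0.12), under the 3 other scalings 3 were higher and 6 lower, and with the length and expression trend removed 4 were higher and 5 lower (median -0.05). ME1, the cytosolic malic enzyme, was at -1.36 and ACLY, which makes cytosolic acetyl-CoA from citrate, at -1.13. Of 12 genes of intracellular sterol transport, 11 were tested and 9 fell. OSBP, the oxysterol-binding protein, was at -1.45 and LIPA, lysosomal acid lipase, at -1.40. Under the scaling that subtracts each library's median, that list had 5 higher and 5 lower. Of 7 genes of bile acid synthesis, 4 were tested, with 1 higher and 2 lower. AKR1D1, the steroid 5-beta-reductase, was at -1.56, and HSD3B7, an early enzyme of the route, at -0.37, turning to 0.16 with the median subtracted. CYP7A1, which starts the classical route, was listed at 0 in every library.

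Of 6 LXR receptors and efflux transporters, 5 were tested, 1 rose and 0 fell. NR1H3, which encodes LXR alpha, rose by 0.59 (adjusted p = 0.000714, limma), and NR1H2, which encodes LXR beta, was at -0.10 (adjusted p = 0.152, limma) and turned positive under other scalings, up to 0.43. Before adjustment, 1 of the 5 had a p under 0.05. Under the 4 other scalings, 4 or 5 of the 5 were called higher (against 32.5% to 41.6% of all tested genes) and 0 lower (against 29.4% to 36.8%). ABCG5 and ABCG8, at 0.94 to 1.43 TPM, lay near the filter of 1 TPM.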

How the data were processed

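Poly(A)-selected RNA of Huh7 control and shFAM111B cells was analysed in 6 of the 12 samples of the series. The authors deposited TPM for each library, and the submitters' processing notes name RSEM, DESeq2 and hg38, with no versions. The aligner is not given in the sources used here. The deposited table also holds group means and the authors' own fold change (a ratio), its log2, p-value and adjusted p-value, which were not used. No counts were at hand, so no count test was run.

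A gene was tested where 3 or more libraries reached 1 TPM (14394 of 60666), and log2(TPM + 1) was compared with limma 3.58.1 (lmFit, eBayes with a trend) under R 4.3.3, without covariates. P-values were adjusted by Benjamini-Hochberg over all tested genes. Positions and lengths came from GENCODE 29 (GRCh38), which holds all 32 members and 14263 tested genes. The length and expression trend was a loess fit (span 0.75) over these genes, subtracted as if known without error. Members, lists and pairs were chosen with earlier results of these data known. Every member may be named, and of each other list the 2 tested genes with the smallest p are, other names having been chosen after their values were seen. Libraries with the same number were not paired in the main fit. Their deviations from the group means correlated at 0.035 to 0.091. A fit with the number as a block, and how often libraries matched their own number, are given below. No library pair was a duplicate (at most 0.889% identical values). The script was tested on simulated data. A leukocyte marker is not reported here.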

Additional observations from a re-analysis of the deposited data

How the results depend on the processing

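The TPM give no depth, so precision rests on 3 libraries a group. Of the 5 summary values (members higher, members lower, both counts at 2-fold, and the median member), the counts of members higher (10 to 16) and lower (12 to 18) stayed within 1.5 times under all alternatives except 16 higher with library medians subtracted. The count higher by at least 2-fold (3) was 5, 5 and 7 under median-of-ratios, upper-quartile and median scaling. The count lower by at least 2-fold (7) was 3, 3, 1 and 3 under these and quantile normalization, and 1 with the length and expression trend removed, so scaling sets how many members pass 2-fold. The median member (-0.27) was 0.18, 0.14, 0.27 and -0.16 under the same 4 scalings, 0.15 with the trend removed and -0.24 with at least 1 TPM in every library, where MYLIP could not be tested. With each library left out in turn, the median ran from -0.30 to -0.24, members higher from 10 to 11, lower from 16 to 17, higher by 2-fold 3 each time and lower by 2-fold from 6 to 9.

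Signs turned for FDFT1 (0.32, 0.28 and 0.41), MSMO1 (0.15, 0.11 and 0.23) and SCAP (0.21, 0.17 and 0.30) under median-of-ratios, upper-quartile and median scaling, and for SCAP at 0.0101 under quantile normalization. With the trend removed, FDFT1 (0.0332), LSS (0.13), SCAP (0.32) and NPC1 (0.17) turned. FDFT1 was not called without control replicate 1, 2 or 3 or shFAM111B replicate 1 or 3 (adjusted p 0.0596 to 0.0948, limma, values -0.13 to -0.11), nor SCAP without control replicate 2 or 3 or shFAM111B replicate 1 or 2 (adjusted p 0.0899 to 0.126, values -0.24 to -0.18). With the replicate number as a block, 10 members were higher and 17 lower, FDFT1 losing its call (-0.13, adjusted p = 0.0509, limma). All 3 control libraries and 2 of 3 shFAM111B libraries correlated best with their own number.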

Other observations

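Among the lipogenic targets of SREBP1, ELOVL6, the elongase that makes stearate from palmitate, and FADS2, the delta-6 desaturase, were the 2 genes of 11 that rose with the deposited TPM. They are named after their values had been seen. ELOVL6 had 14.6, 20.6 and 9.45 TPM in controls and 77.7, 42.3 and 26.1 TPM after knockdown (log2 fold change 1.57, standard error 0.414, adjusted p = 0.0112, limma). Its shFAM111B libraries spread widely, but the lowest was above the highest control. FADS2 had 101.0, 97.9 and 99.6 TPM in controls and 132.5, 134.0 and 132.4 TPM after knockdown (log2 fold change 0.41, adjusted p = 8.54e-05, limma). At 6454 and 5073 nt, both transcripts are long.

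Antisense genes of 3 members were listed at low levels, CYP51A1-AS1 at 0.1 TPM or less in every library. SREBF2-AS1 had 0.29, 0 and 0.04 TPM in controls and 1.14, 2.01 and 1.81 TPM after knockdown, the opposite direction to SREBF2. STARD4-AS1 had 0.89, 1.04 and 0.83 TPM in controls and 0.04, 0.04 and 0 TPM after knockdown, the same direction as STARD4. Whether the counting used strand is not given in the sources used here, so reads of each overlapping pair may be mixed.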
